A study of Mus musculus with 2 samples.

Results

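Receptors for the colony-stimulating factors, Flt3 and the ligand gene Csf1 were examined across the cell classes of colonic polyp myeloid cells. The 7 genes were taken by symbol from the gene list of both libraries: Csf1r, Csf2ra, Csf2rb, Csf2rb2, Csf3r, Flt3 and Csf1, out of 32285 genes listed, and each symbol occurred in 1 row. The polyps came from C57BL6/J mice, labelled 26 weeks old, that had received azoxymethane (AOM, a colon carcinogen) and then 3 cycles of 1% dextran sulfate sodium (DSS, which injures the colonic epithelium), and were taken at week 16 after AOM. The WT library held cells of wild-type mice, and the library labelled KO held cells of Clec7a-/- mice, which lack the β-glucan receptor Dectin-1 in every cell rather than in 1 lineage. CD11b+ and CD11c+ cells were sorted by flow cytometry, and cells of several mice were pooled into 1 library per genotype. With 1 library per genotype no difference between them has a replicate check, so no p-value is given; the 95% intervals below cover counting error only. The row of the deleted gene was not analysed here, so the genotype labels were not checked on it.

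These genes form the receptors through which myeloid cells receive growth and survival signals. Csf1r is the receptor tyrosine kinase for M-CSF, which Csf1 encodes, and for IL-34, and it maintains monocytes and macrophages. Csf2ra encodes the GM-CSF binding α chain and Csf2rb the signalling β chain that GM-CSF, IL-3 and IL-5 receptors share, while Csf2rb2 encodes the mouse β chain that serves IL-3 alone. Csf3r is the G-CSF receptor of the neutrophil lineage. Flt3 is the receptor for Flt3 ligand, on which dendritic cell development depends. In the colon, macrophages are replenished from blood monocytes in a Csf1r-dependent way, and GM-CSF acts on dendritic cells and macrophages of the mucosa.

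The files held 3467 WT and 3080 Clec7a-/- barcodes with 15869215 and 11808230 unique molecular identifiers (UMIs, counted transcript molecules). After filters on detected genes and mitochondrial UMIs, 2696 WT and 1999 Clec7a-/- cells were kept, with medians of 3412.5 and 2671 UMIs, and 17 barcodes occurred in both libraries. Cells were clustered without the 7 genes, their pathway genes and sex-linked genes, and classes were named from marker genes as neutrophil-like (678 WT and 404 Clec7a-/- cells), monocyte-like (401 and 271), monocyte-macrophage transitional-like (325 and 224), macrophage-like (532 and 293) and dendritic cell-like (DC-like, 360 and 564). Neutrophil and monocyte markers occurred together in 1 cluster (276 and 63 cells), which was kept apart as mixed. T cell-like cells (67 and 121) and 21 mast cell-like cells were also present, although the sort was on CD11b and CD11c. The neutrophil-like class held a granule-rich cluster led by Ngp and Retnlg (497 and 85 cells) and a shallow cluster led by Prok2, Col15a1 and Ffar2 (181 and 319 cells). The shallow cluster had medians of 1141 and 912 UMIs, 33.4% and 34.1% of the medians of all cells kept. None of the neutrophil markers was among its 10 leading genes, though 7 of 11 passed the naming rule, so its name is uncertain. The transitional-like name is uncertain too, since it rested on 4 of 8 markers. In both libraries the summed share of UMIs of those markers was higher in monocyte-like and granule-rich cells than in transitional-like cells. Most neutrophil-like cells thus lay in the granule-rich cluster in WT and in the shallow cluster in Clec7a-/-.

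A level below is the count of a gene scaled to the total UMIs of the cells named (CPM, counts per 1000000), and a difference is log2 of the Clec7a-/- level over the WT level. T cell-like cells, which should lack these receptors, gave the level of free RNA and of stray cells. Their Csf1r level was 34.3 CPM in WT and 109.6 CPM in Clec7a-/-. Csf2rb stood there at 199.9 and 273.9 CPM, Csf3r at 205.6 and 168.6 CPM, and Flt3 at 3 UMIs in both libraries together.

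**Figure D1:**
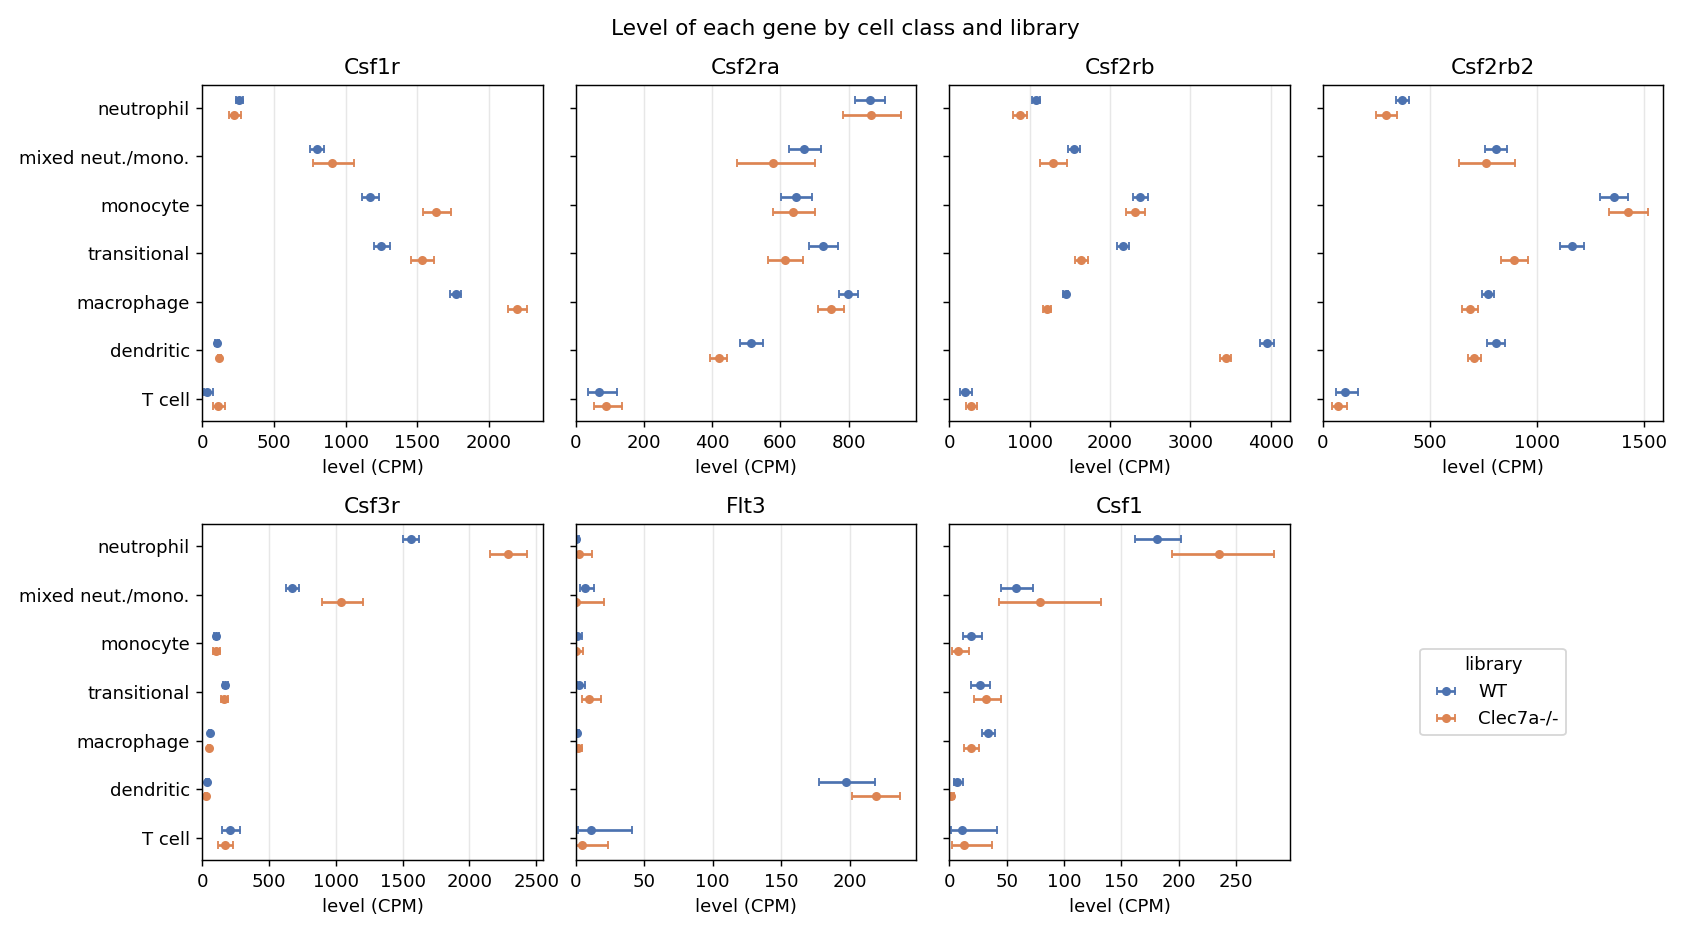
Level of each gene in CPM (horizontal axes, linear, from 0) by cell class (rows), with WT in blue and Clec7a-/- in orange and bars for the exact 95% Poisson interval (counting error only, 1 library per genotype). Among the 7 classes shown, Csf1r was highest in macrophage-like cells, Csf2rb in DC-like cells, Csf3r and Csf1 in neutrophil-like cells, and Flt3 stood above 10 CPM in DC-like cells of both libraries and in WT T cell-like cells, where it rested on 2 UMIs.

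Csf1r followed the monocyte to macrophage classes, and within each of these its level was higher in the Clec7a-/- library. The gene, ENSMUSG00000024621, lies on the plus strand of chromosome 18 (61100598 to 61132149, GRCm38). In macrophage-like cells Csf1r measured 1767 CPM in WT and 2197 CPM in Clec7a-/-, a difference of 0.31 (0.26 to 0.37). Both macrophage-like clusters showed it: the level was 2117 and 2595 CPM in the cluster led by genes such as Pgf, Mmp13 and Mrc1, and 1548 and 1869 CPM in the cluster led by Igf1, Lpl and Trem2. The intervals of the 2 clusters did not overlap in either library, so the Mmp13 and Mrc1 cluster held the highest Csf1r level.

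In monocyte-like cells, marked by Ly6c2 and Chil3, Csf1r measured 1173 CPM in WT and 1634 CPM in Clec7a-/-, a difference of 0.48 (0.36 to 0.59). In transitional-like cells the levels were 1250 and 1533 CPM, a difference of 0.30 (0.19 to 0.39). All 3 differences exceeded counting error and none reached 2-fold. Csf1r in the T cell-like cells was also higher in Clec7a-/-, a difference of 1.68 (0.36 to 3.25) from 6 and 26 UMIs. In CPM that was 75.3, and the differences in the 3 classes were 461, 284 and 430 CPM in the order monocyte-like, transitional-like and macrophage-like. The part of stray RNA in them was not tested.

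The mixed cluster held 798.3 CPM of Csf1r in WT and 905.4 CPM in Clec7a-/-, a difference of 0.18 (-0.07 to 0.42). Csf1r was lower in the neutrophil-like and DC-like classes. It measured 257.7 and 224.7 CPM in neutrophil-like cells and 104.2 and 119.8 CPM in DC-like cells, and neither difference exceeded counting error. Within the DC-like class it was uneven. The cluster led by Siglecg, Lad1 and Fscn1 held 195.4 and 288.5 CPM, a difference of 0.56 (0.28 to 0.84) that exceeded counting error. The cDC1-like cluster led by Itgae and Xcr1 held 24.5 and 21.5 CPM, no higher than T cell-like cells. At a higher clustering resolution the Siglecg cluster divided. Its cDC2-like section held 240.2 CPM in WT (196.6 to 290.5) and 462.7 CPM in Clec7a-/- (405.5 to 525.8), intervals that did not overlap. Its mature DC-like section held 147.0 and 122.7 CPM. Proliferating cells, 13 and 21 in number, had Csf1r levels of 1576 and 1570 CPM, close to those of the monocyte and macrophage classes.

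The chains of the GM-CSF receptor were spread over all myeloid classes. Csf2ra (ENSMUSG00000059326, chromosome 19, minus strand, 61223957 to 61228429, GRCm38) ranged in WT from 514.8 CPM in DC-like to 861.6 CPM in neutrophil-like cells, against 68.5 CPM in T cell-like cells. In Clec7a-/- its range over the same classes was 418.4 to 865.5 CPM. The level was lower in Clec7a-/- in DC-like cells, by -0.30 (-0.42 to -0.17), and in transitional-like cells, by -0.24 (-0.39 to -0.10). In macrophage-like cells the difference was -0.10 (-0.18 to -0.01), and in monocyte-like and neutrophil-like cells it was -0.02 and 0.01, within counting error. The macrophage-like value joined -0.24 (-0.37 to -0.10) in the Mmp13 and Mrc1 cluster and 0.007 (-0.11 to 0.12) in the Igf1 and Trem2 cluster. The neutrophil-like value joined clusters of opposite direction: -0.37 (-0.67 to -0.09) in the granule-rich cluster, which held most WT cells, and 0.34 (0.07 to 0.61) in the shallow one, which held most Clec7a-/- cells. All 3 DC-like clusters had lower Csf2ra in Clec7a-/-, from -0.46 in the cluster led by Il12b to -0.28 in the cDC1-like cluster.

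Csf2rb (ENSMUSG00000071713, chromosome 15, plus strand, 78325752 to 78353847) and Csf2rb2 (ENSMUSG00000071714, minus strand, 78282507 to 78305721) are neighbours on GRCm38, 20030 bases apart and transcribed away from each other. Their coding sequences in the GENCODE transcripts Csf2rb-201 and Csf2rb2-201 (2691 and 2637 bases) were 95.2% identical over 2631 aligned bases. The end of each coding sequence is shown 5′ to 3′ because the 2 frames stop at different places there, with capitals for bases that differ or have no partner. It lies at chr15:78349066-78349185 (plus strand) for Csf2rb and chr15:78284317-78284382 (minus strand) for Csf2rb2.
Csf2rb: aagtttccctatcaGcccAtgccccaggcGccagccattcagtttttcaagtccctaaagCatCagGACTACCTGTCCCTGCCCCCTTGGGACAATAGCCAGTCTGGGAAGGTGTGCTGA
Csf2rb2: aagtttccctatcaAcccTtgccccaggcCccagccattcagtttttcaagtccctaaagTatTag
The shared stretch differed at 5 bases, and the Csf2rb frame ran 54 bases further. A 3′ kit reads the ends of transcripts, and there the genes differed more: the last 500 bases were 82.2% identical over 472 aligned bases, and none of the 411 windows of 90 bases in either of them occurred whole in the other transcript. Within the Csf2rb coding sequence 12.6% of such windows occurred in Csf2rb2, and those stretches of 90 bases alone could not tell the genes apart. Windows of the sequenced read length were not compared.

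Of the 5 named myeloid classes, Csf2rb was highest in DC-like cells, and it was lower in the Clec7a-/- library in 4 of them. In DC-like cells it measured 3951 CPM in WT and 3438 CPM in Clec7a-/-, a difference of -0.20 (-0.24 to -0.16). The cDC1-like cluster stood highest in both libraries at 4783 and 4062 CPM, and the Il12b cluster followed at 4602 and 3651 CPM. Their intervals overlapped in WT and not in Clec7a-/-. All 3 DC-like clusters were lower in Clec7a-/-, by -0.23 to -0.33.

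In transitional-like cells Csf2rb measured 2163 CPM in WT and 1644 CPM in Clec7a-/-, a difference of -0.40 (-0.48 to -0.31). In macrophage-like cells it measured 1446 and 1210 CPM, a difference of -0.26 (-0.33 to -0.19). In neutrophil-like cells it measured 1077 and 880 CPM, a difference of -0.29 (-0.45 to -0.14). Monocyte-like cells were the exception, with 2378 and 2315 CPM and a difference of -0.04 (-0.13 to 0.05). Of the 2 macrophage-like clusters, the Igf1 and Trem2 cluster showed the greater difference, -0.53 (-0.65 to -0.42), against -0.17 (-0.26 to -0.08) in the Mmp13 and Mrc1 cluster. In the shallow neutrophil-like cluster the difference was -0.87 (-1.10 to -0.65), and in the granule-rich one -0.29 (-0.56 to -0.02). The shallow cluster divided at the higher resolution. In its mostly Clec7a-/- part Csf2rb measured 1815 CPM in WT and 864.2 CPM in Clec7a-/-. In its mostly WT part it measured 1585 (1383 to 1809) and 1316 CPM (967.1 to 1750), intervals that overlapped.

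Csf2rb2 ran with Csf2rb in its direction between libraries in most classes, but was distributed otherwise over cell types. It was highest among the large classes in monocyte-like cells, at 1356 CPM in WT and 1422 CPM in Clec7a-/-, a difference of 0.07 (-0.05 to 0.18). In transitional-like cells it measured 1162 and 892 CPM, a difference of -0.38 (-0.50 to -0.26). DC-like cells held 806.7 and 706.4 CPM, with a difference of -0.19 (-0.29 to -0.09). Within DC-like cells the direction was not shared: the cDC1-like cluster had the lowest Csf2rb2, 300.6 CPM in WT and 411.0 CPM in Clec7a-/-, a difference of 0.45 (0.20 to 0.71), while the Siglecg cluster measured 1261 and 1139 CPM, -0.15 (-0.27 to -0.03). In the shallow neutrophil-like cluster Csf2rb2 measured 805.3 CPM in WT and 299.1 CPM in Clec7a-/-, a difference of -1.43 (-1.80 to -1.07), the only one of this gene beyond 2-fold among clusters with at least 100 UMIs of it.

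The share of the pair's UMIs that Csf2rb2 held set the cell types apart. Over both libraries it was 7.90% (7.31 to 8.52%, exact binomial) in the cDC1-like cluster and 12.2% (11.3 to 13.2%) in the Il12b cluster. It was 29.7% in the Siglecg cluster, 25.5% in neutrophil-like cells, 36.9% in monocyte-like, 35.0% in transitional-like and 35.2% in macrophage-like cells. The cDC1-like and Il12b clusters therefore held several-fold less Csf2rb2 for each Csf2rb UMI than the monocyte-derived classes. Mast cell-like cells lay at the other end with 50.7% (46.8 to 54.5%), though from 21 cells, of which 5 were Clec7a-/-. In the cDC1-like cluster the share was 5.91% (5.11 to 6.80%) in WT and 9.19% (8.38 to 10.0%) in Clec7a-/-, intervals that did not overlap.

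**Figure D2:**
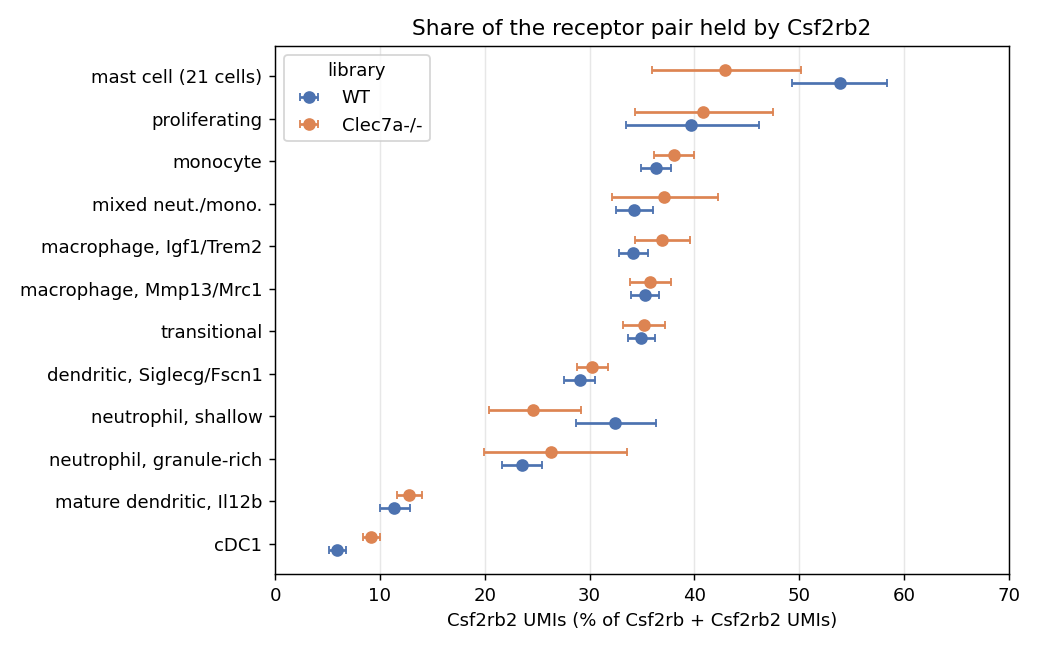
Csf2rb2 UMIs as a percentage of the Csf2rb and Csf2rb2 UMIs together (horizontal axis) for the clusters with at least 100 such UMIs in a library (rows), WT in blue and Clec7a-/- in orange, with exact 95% binomial intervals. The cDC1-like cluster (5.91 and 9.19%) and the Il12b cluster (11.4 and 12.8%) lie apart from the monocyte and macrophage clusters, which sit between 34.2 and 38.1%.

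Csf3r (ENSMUSG00000028859, chromosome 4, plus strand, 126024550 to 126044440, GRCm38) was a gene of the neutrophil-like cells, and its level there was higher in Clec7a-/-. It measured 1561 CPM in WT and 2291 CPM in Clec7a-/-, a difference of 0.55 (0.45 to 0.65). Both clusters shared the direction: the granule-rich cluster measured 1649 and 2059 CPM, a difference of 0.32 (0.15 to 0.49), and the shallow cluster 999.3 and 2402 CPM, a difference of 1.27 (1.05 to 1.48). In the mixed cluster Csf3r measured 675.2 and 1040 CPM, a difference of 0.62 (0.39 to 0.86). The order of the clusters therefore turned, with the granule-rich cluster first in WT and the shallow cluster first, its interval overlapping that of the granule-rich one, in Clec7a-/-. At the higher resolution the shallow cluster divided. The mostly Clec7a-/- part (56 and 278 cells) kept the neutrophil name, with Csf3r at 1347 and 2513 CPM. The mostly WT part (129 and 42 cells) was left unnamed by the marker rule, with 756.7 and 1456 CPM. The Clec7a-/- level was higher in each part.

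Elsewhere Csf3r was at or below the level of T cell-like cells (205.6 and 168.6 CPM). It measured 172.4 and 164.7 CPM in transitional-like cells, where the WT value ranged from 49.5 to 188 CPM over the processing alternatives, 101.9 and 105.0 CPM in monocyte-like cells, 55.5 and 50.1 CPM in macrophage-like cells, and 38.5 and 25.2 CPM in DC-like cells. The neutrophil transcripts S100a8 and S100a9 gave a measure of stray neutrophil RNA. For each 1000 of their UMIs, Csf3r had 53.2 UMIs in WT neutrophil-like cells and 58.3 (40.8 to 80.6) in WT T cell-like cells, so the ratio was alike within counting error. Monocyte-like cells had 113 (94.1 to 135) in WT, above both of these values, and macrophage-like cells had a ratio between 78.9 and 102. The WT neutrophil-like ratio joined unlike clusters, 50.7 in the granule-rich and 110 (96.6 to 125) in the shallow one. The interval of the shallow cluster overlapped those of the monocyte-like and macrophage-like cells. In Clec7a-/- the ratio was 114 in neutrophil-like, 168 (120 to 229) in T cell-like, 221 (172 to 279) in monocyte-like and 240 (195 to 293) in macrophage-like cells. The granule-rich cluster had 68.5 there and the shallow one 158 (147 to 170), below the monocyte-like and macrophage-like intervals, which overlapped that of T cell-like cells. Whether Csf3r in these classes exceeded stray neutrophil RNA was not tested. S100a8 and S100a9 themselves stood at 29332 CPM in WT and 20028 CPM in Clec7a-/- neutrophil-like cells. In the granule-rich cluster they stood at 32502 and 30043 CPM. In the shallow cluster the direction was the other, with 9065 CPM in WT and 15199 CPM in Clec7a-/-. The part of these differences in the Csf3r result was not tested. Nor was that of the shallower Clec7a-/- cells of this class (medians of 2507.5 UMIs in WT and 1051 in Clec7a-/-).

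Flt3 (ENSMUSG00000042817, chromosome 5, minus strand, 147330741 to 147400489, GRCm38) belonged to the DC-like cells, which held 94.8% of its UMIs in WT and 97.5% in Clec7a-/-. In this class it measured 197.5 CPM in WT and 219.0 CPM in Clec7a-/-, a difference of 0.15 (-0.04 to 0.34) that did not exceed counting error. The Il12b cluster was highest, at 309.5 and 313.8 CPM, followed by the cDC1-like cluster at 197.7 and 204.6 CPM and the Siglecg cluster at 148.9 and 166.4 CPM. None of the 3 differed between libraries beyond counting error. When the Siglecg cluster was divided, its cDC2-like section held 54.4 and 72.9 CPM and its mature section 246.6 and 259.0 CPM, so Flt3 was lower in the cDC2-like cells than in any other DC-like cluster. No Flt3 UMI was found in the 1753691 UMIs of WT neutrophil-like cells, which allows a level of up to 1.71 CPM.

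Over all cells kept, by contrast, Flt3 was 31.3 CPM in WT and 83.6 CPM in Clec7a-/-, a difference of 1.42 (1.23 to 1.61). DC-like cells made up 13.4% of the WT and 28.2% of the Clec7a-/- cells kept. When the Clec7a-/- levels of the clusters were weighted by the WT shares of UMIs, the Flt3 difference was 0.09. Fewer cells of a type and less RNA per cell cannot be told apart in such whole-library values.

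Csf1, the ligand (ENSMUSG00000014599, chromosome 3, minus strand, 107741048 to 107760469, GRCm38), had most of its UMIs in neutrophil-like cells, which held 51.1% of its UMIs in WT and 50.7% in Clec7a-/-. There it measured 180.8 CPM in WT and 235.1 CPM in Clec7a-/-, a difference of 0.38 (0.06 to 0.69). The class value joined unlike clusters. In the shallow cluster Csf1 was higher in WT, with 463.8 and 268.3 CPM and a difference of -0.79 (-1.21 to -0.37), while in the granule-rich cluster it measured 136.5 and 166.3 CPM, a difference of 0.28 (-0.36 to 0.88). Within neither cluster did Csf1 stand higher in Clec7a-/- beyond counting error. The shallow cluster had the higher Csf1 level in both libraries, though the intervals of the clusters overlapped in Clec7a-/-. It held 181 of the 678 WT and 319 of the 404 Clec7a-/- cells of the class. At the higher resolution its parts went opposite ways. Csf1 measured 420.4 CPM in WT and 214.3 CPM in Clec7a-/- in the mostly Clec7a-/- part. In the mostly WT part it measured 482.8 (374.2 to 613.2) and 700.1 CPM (453.1 to 1033), and these intervals overlapped. Csf1 was among the 10 leading genes of the shallow cluster, although it was not used to form it.

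In macrophage-like cells Csf1 measured 33.5 CPM in WT (143 UMIs) and 18.7 CPM in Clec7a-/- (37 UMIs), a difference of -0.84 (-1.40 to -0.31). The Igf1 and Trem2 cluster held 114 of those WT UMIs and 25 of the Clec7a-/- ones. The mixed cluster held 69 and 14 Csf1 UMIs (57.8 and 78.7 CPM) and transitional-like cells 41 and 29 (26.4 and 31.6 CPM), with no difference beyond counting error. DC-like cells had 13 and 5 Csf1 UMIs (7.05 and 1.78 CPM), a difference of -1.99 (-3.83 to -0.41) that exceeded counting error. These levels were no higher than the 11.4 and 12.6 CPM of T cell-like cells, which rested on 2 and 3 UMIs. Monocyte-like cells had 23 and 5 Csf1 UMIs, a difference of -1.36 (-3.11 to 0.07). The mast cell-like cells had 8 and 10 Csf1 UMIs, 99.0 CPM in WT and 441.4 CPM in the 5 Clec7a-/- cells. That difference of 2.16 (0.66 to 3.70) exceeded counting error but rested on few cells. Csf1r and Csf1 thus lay mainly in different classes, and after thinning 3.31% of WT and 2.75% of Clec7a-/- neutrophil-like cells held a UMI of both.

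Csf3r and Csf1 had the highest correlation among the 7 genes over the clusters. Over 24 points (clusters by library with at least 20 cells), log2(CPM + 10) of Csf3r and Csf1 had a Pearson r of 0.89, and that of Csf2rb and Csf2rb2 0.76; these points share libraries and are a description only. Within the neutrophil-like class the 2 genes did not run together. In WT the granule-rich cluster held 1649 CPM of Csf3r and 136.5 CPM of Csf1, and the shallow cluster 999.3 and 463.8 CPM. Between libraries the shallow cluster differed by 1.27 for Csf3r and -0.79 for Csf1. The 250 bases before the RefSeq start of Csf3r and of Csf1 are shown 5′ to 3′ because this pair had the highest r. Capitals mark GAGGAA on either strand, a core that PU.1, the master factor of the myeloid lineages, can bind. The 2 windows lie at chr4:126024409-126024658 (plus strand) and chr3:107760470-107760719 (minus strand) on GRCm38.p6. RefSeq promoters were read for 5 of the 7 genes, the other 3 being Csf2ra, Csf2rb2 and Flt3. Csf1r was left out of this search by choice, and no promoter entry was available for Csf2rb.
Csf3r: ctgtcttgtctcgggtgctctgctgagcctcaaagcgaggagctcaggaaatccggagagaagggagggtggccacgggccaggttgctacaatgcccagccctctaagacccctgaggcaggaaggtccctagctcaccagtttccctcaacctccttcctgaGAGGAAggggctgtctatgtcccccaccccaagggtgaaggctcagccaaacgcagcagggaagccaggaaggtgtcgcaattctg
Csf1: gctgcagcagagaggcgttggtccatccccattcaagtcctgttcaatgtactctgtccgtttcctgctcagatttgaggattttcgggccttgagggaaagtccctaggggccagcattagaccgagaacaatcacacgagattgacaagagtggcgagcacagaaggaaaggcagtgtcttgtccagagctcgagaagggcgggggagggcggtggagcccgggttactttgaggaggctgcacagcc
The Csf3r window held 1 match and the Csf1 window none. The Csf3r window ran past the start given above for that gene (126024550), and its match lay within the gene as placed there. Csf2ra held 2, Csf2rb2 1 and Flt3 none, and TTGCNNAA, a core that C/EBP factors can bind, was found in none of the 5. The Csf2ra window likewise ran past the start of that gene given above (61228429), and its matches lay wholly or partly within the gene. Of 32851 such windows 23.3% held GAGGAA and 9.56% held TTGCNNAA on either strand, and a match describes letters, not a bound site.

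Levels were also read as shares of cells. Each cell was thinned to 1000 UMIs, which left out 186 WT (6.90%) and 307 Clec7a-/- cells (15.4%) with fewer. At least 1 UMI of Csf3r was found in 75.3% (71.7 to 78.7%, exact binomial) of WT and 83.9% (78.4 to 88.6%) of Clec7a-/- neutrophil-like cells, against 16.1% and 17.6% of T cell-like cells. In this class thinning kept 604 of 678 WT and only 218 of 404 Clec7a-/- cells. Before thinning the shares were 86.3% (83.5 to 88.8%) and 85.4% (81.6 to 88.7%), so the higher Clec7a-/- share was not seen in cells of unequal depth. For Csf1 the share of neutrophil-like cells was 14.9% (12.2 to 18.0%) in WT and 12.4% (8.32 to 17.5%) in Clec7a-/-, the reverse order of the class levels. For Csf3r in DC-like cells it was 2.99% (1.44 to 5.44%) and 3.77% (2.32 to 5.76%), again the reverse. The intervals of the libraries overlapped for both genes, so neither order of shares exceeded counting error. Csf1r was found in 61.5% of WT and 74.3% of Clec7a-/- monocyte-like cells and in 78.5% and 83.9% of macrophage-like cells, against 3.57% and 6.59% of T cell-like cells. Csf2rb was found in 93.4% of WT and 91.1% of Clec7a-/- DC-like cells. Flt3 was found in 15.9% and 18.6% of DC-like cells and in none of the 56 WT and 91 Clec7a-/- T cell-like cells left after thinning; before it, 2 of 67 and 1 of 121 T cell-like cells held a Flt3 UMI. Cells with UMIs of both Csf1r and Csf3r made up 20.3% of WT and 25.4% of Clec7a-/- cells of the mixed cluster. The shares were 16.7% and 16.5% in neutrophil-like and 6.68% and 5.31% in monocyte-like cells. Such shares depend on the single-gene shares, in the mixed cluster 48.6% and 60.3% for Csf1r and 47.1% and 58.7% for Csf3r. In neutrophil-like cells Csf1r was found in 19.9% and 18.3%. Whether the 2 genes occurred together more often than their single shares give was not tested. Doublets were not removed.

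**Figure D3:**
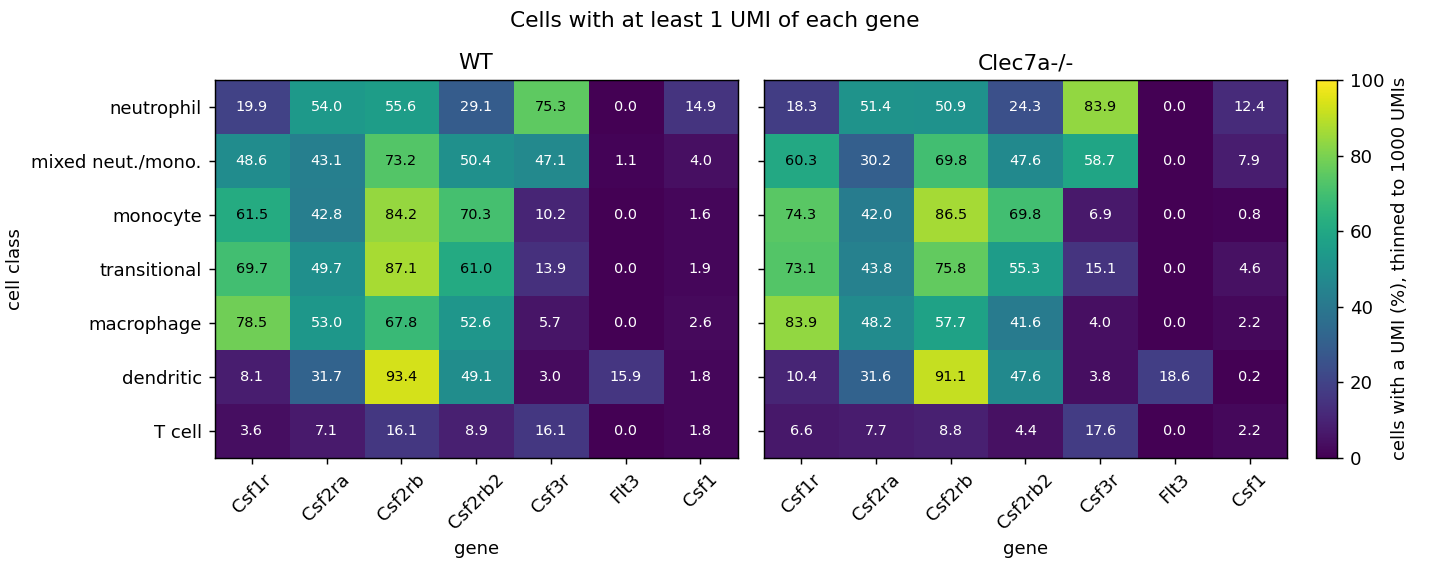
Percentage of cells with at least 1 UMI of each gene (columns) in each cell class (rows) after thinning to 1000 UMIs, for WT (left) and Clec7a-/- (right); colour runs from 0 to 100%. Csf2rb reached 93.4% of WT DC-like cells and Csf3r 83.9% of Clec7a-/- neutrophil-like cells, while Flt3 was seen in 15.9 and 18.6% of DC-like cells and in at most 1.09% of any other class shown.

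Between the libraries as a whole, only Flt3 of the 7 genes lay beyond 2-fold, where 4.13% of the 8470 genes with at least 100 UMIs did. The other 6 whole-library differences were -0.02 for Csf1r, -0.31 for Csf2ra, 0.13 for Csf2rb, -0.17 for Csf2rb2, -0.61 for Csf3r and -0.77 for Csf1. At WT cluster shares they became 0.28 for Csf1r, -0.17 for Csf2ra, -0.26 for Csf2rb, -0.16 for Csf2rb2, 0.39 for Csf3r and -0.05 for Csf1. The sign thus turned for Csf2rb and Csf3r with both values beyond counting error, by approximate intervals of -0.30 to -0.23 and 0.28 to 0.50 at WT shares. Csf1r went from a value within counting error to one beyond it (0.24 to 0.32), while those of Csf1 (-0.35 to 0.25) and Flt3 (-0.09 to 0.28) at WT shares spanned 0. For Csf2rb the whole-library value also changed sign with the scaling, to -0.033 under TMM, and for Csf3r the mean over cells gave 0.21.

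**Figure D4:**
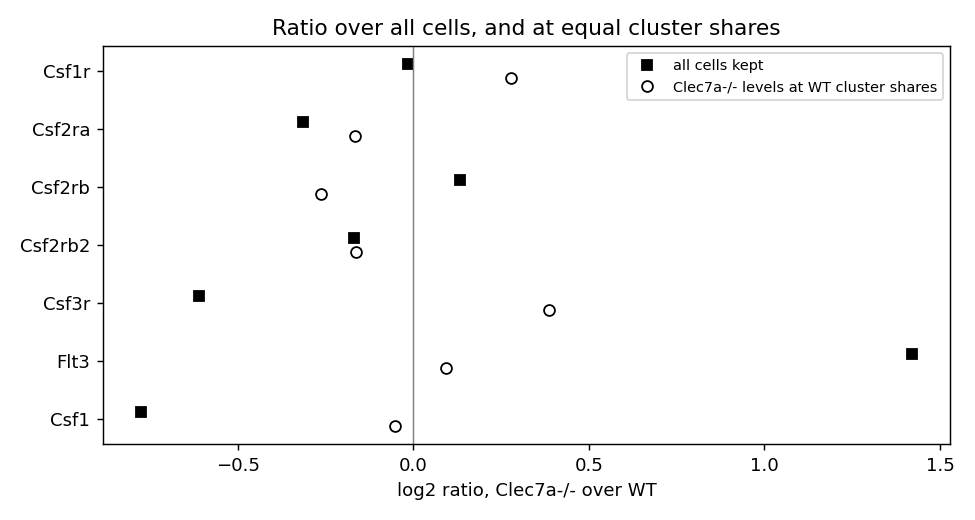
Log2 ratio of the Clec7a-/- over the WT level (horizontal axis) for each gene (rows), over all cells kept (squares) and with Clec7a-/- cluster levels weighted by WT cluster shares (open circles). Flt3 moves from 1.42 to 0.09, Csf3r from -0.61 to 0.39 and Csf2rb from 0.13 to -0.26.

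Within the classes none of the genes tested lay beyond 2-fold. This was 0 of 6 in neutrophil-like cells, where 4.22% of all genes tested did, 0 of 5 in monocyte-like cells (1.09%), 0 of 5 in transitional-like cells (1.52%), 0 of 6 in macrophage-like cells (0.864%) and 0 of 6 in DC-like cells (1.17%). The differences of the genes with at least 100 UMIs were thus smaller than 2-fold in each of these classes, and few genes of any kind exceeded that size. Values from fewer UMIs could exceed it, such as Csf1 in DC-like cells (-1.99), where its level was no higher than in T cell-like cells. So could values of single clusters, such as Csf3r (1.27) and Csf2rb2 (-1.43) in the shallow cluster.

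**Figure D5:**
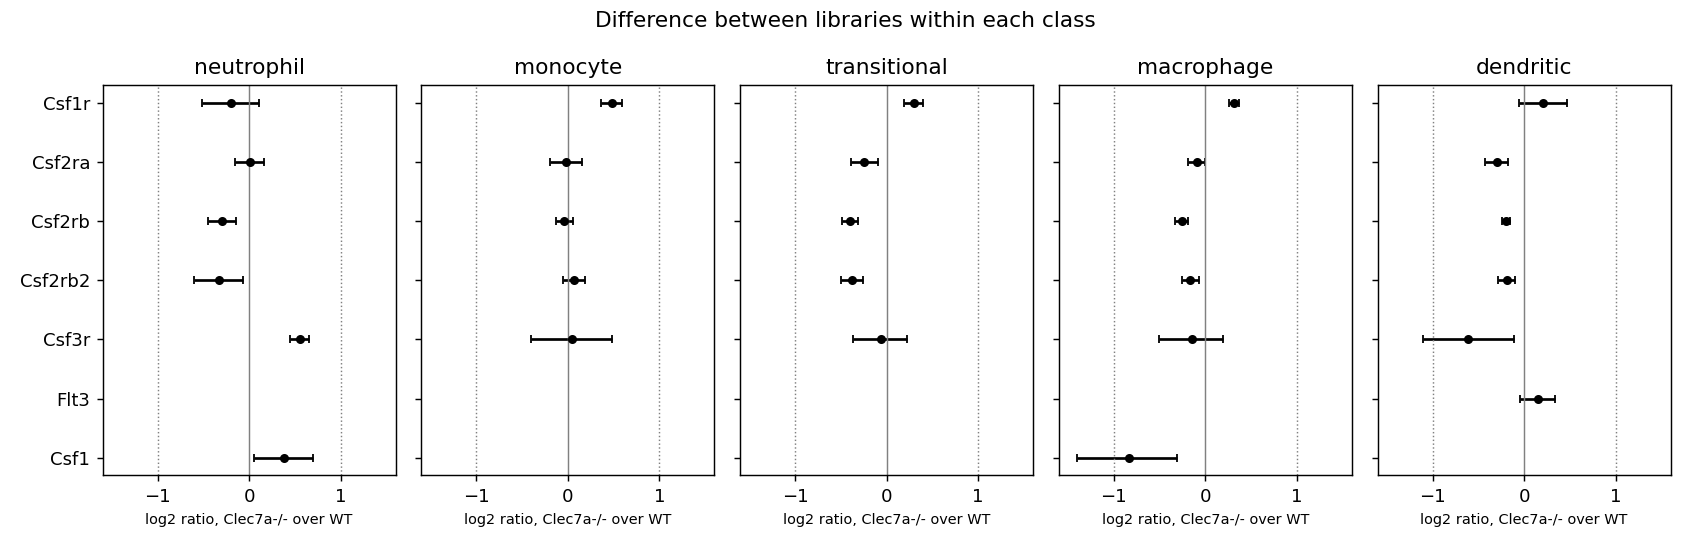
Log2 ratio of the Clec7a-/- over the WT level (horizontal axis) for each gene (rows) with at least 100 UMIs in a class (panels), with 95% intervals from counting error; dotted lines mark 2-fold. Csf1r lies right of 0 in the monocyte, transitional and macrophage panels (0.48, 0.30 and 0.31), Csf3r in the neutrophil panel (0.55), and the Csf2rb interval left of 0 in all but the monocyte panel, where it spans 0 (-0.13 to 0.05).

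Of 7 other ligand genes, Csf3, which encodes G-CSF, was the only one with at least 100 UMIs. Csf3 had 292 UMIs in WT (23.8 CPM) and 39 in Clec7a-/- (5.16 CPM), a difference of -2.20 (-2.73 to -1.72). In neutrophil-like cells Csf3 measured 89.5 CPM and 35.4 CPM, from 157 and 17 UMIs, a difference of -1.34 (-2.16 to -0.61). Monocyte-like cells held 51 and 11 of the Csf3 UMIs, and the mixed cluster 53 and 1. Kitl, the ligand of Kit, had 41 and 23 UMIs and Flt3l 15 and 19, and neither differed beyond counting error. Il34 and Il3 had none, and Csf2, which encodes GM-CSF, had a single UMI in WT, as Il5 had in Clec7a-/-.

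Of 5 other receptors, Kit, a receptor kinase related to Flt3 and Csf1r, was the only one with at least 100 UMIs. Kit measured 45.0 CPM in WT and 82.7 CPM in Clec7a-/- over all cells (553 and 625 UMIs). In DC-like cells Kit measured 195.3 and 186.3 CPM, and in mast cell-like cells 1583 and 2163 CPM. Its whole-library difference of 0.88 thus had no counterpart within DC-like cells. Il3ra, the IL-3 binding chain, had 47 and 35 UMIs, Pdgfrb 13 and 8, and Il5ra and Pdgfra none.

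Downstream of the receptors, most genes differed by less than 2-fold between the libraries within a class, as did most genes of any kind. Of the 12 JAK-STAT genes and their inhibitors, 6 had at least 100 UMIs in neutrophil-like cells, with a median difference of 0.02 beside -0.01 over all genes tested. Only Socs1, an inhibitor of JAK kinases, lay beyond 2-fold there, where 4.22% of all genes tested did. It measured 82.1 CPM in WT and 172.7 CPM in Clec7a-/- (1.07, 0.66 to 1.47). In DC-like cells all 12 were measured with a median of -0.13 beside 0.02, and in macrophage-like cells 8 with -0.002 beside -0.01. Monocyte-like cells had 5 with 0.07 beside 0.01, and transitional-like cells 7 with 0.11 beside 0.04. None lay beyond 2-fold in these classes, where 0.864% to 1.52% of all genes tested did. The 3 with the most UMIs over all cells were Pim1, a kinase induced by cytokines (1471 and 1280 CPM), Stat3 (307.7 and 382.1 CPM) and Jak1 (292.3 and 254.3 CPM).

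Of 18 adaptors, kinases and phosphatases, 16 were measured in macrophage-like cells, with a median of -0.03 beside -0.01, and 12 in neutrophil-like cells, with a median of -0.09 beside -0.01. In monocyte-like cells 12 had a median of -0.08 beside 0.01, in transitional-like cells 13 had 0.11 beside 0.04, and in DC-like cells 16 had 0.02 beside 0.02. None of them lay beyond 2-fold in a class with at least 100 UMIs, where 0.864% to 4.22% of all genes tested did. Fgr in DC-like cells, with 61 and 38 UMIs, had a difference of -1.29 (-1.92 to -0.68). Those with the most UMIs were Tyrobp, the signalling adaptor also known as DAP12 (1590 CPM in WT and 1164 CPM in Clec7a-/-), Grb2, the adaptor that links receptors to Ras (512.6 and 544.1 CPM), and the kinase Lyn (357.5 and 260.5 CPM). Over all cells kept, Socs2 (1.06) and the kinase Fgr (-1.19) lay beyond 2-fold, where 4.13% of all genes tested did. Socs2 and Fgr were named after their values were seen.

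Across the 24 points each gene had close companions among 4655 genes with at least 500 UMIs. Csf1r was most like Tgfbi (r 0.97), Cybb, Acp5, Mmp14 and Clec4a2. Csf3r was most like Cd300lf (0.99), Sh2d3c, Il1f9, Gm15832 and Hcar2, and Csf1 most like Gadd45g (0.95), Dedd2, Pnpla7, Haus8 and Sorl1. Flt3 was most like Avpi1 (0.98), Tnfaip8, Serpinb6b, Arhgef40 and Ptger4. The chains of the GM-CSF receptor had weaker companions: Csf2rb was most like Filip1l (0.93), Bcl2a1a, Skap2, Atox1 and Cdkn1a, Csf2ra like Dnase1l1 (0.94), Fmnl2, Mbnl2, Vps18 and Nfe2l2, and Csf2rb2 like Bax (0.91), Renbp, St3gal1, Stx3 and Pias1. These values describe clusters of 2 libraries and carry no test.

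The mast cell-like cells, marked by Mcpt1 and Cpa3, were few but carried both β chains. Csf2rb measured 2746 CPM in WT (16 cells) and 4988 CPM in Clec7a-/- (5 cells), a difference of 0.86 (0.52 to 1.19), and Csf2rb2 measured 3204 and 3752 CPM, a difference of 0.23 (-0.14 to 0.59). Csf2ra had 6 and 1 UMIs there. The Csf2rb level rested on 5 Clec7a-/- cells, whose spread the interval does not hold.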

How the data were processed

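The deposited files hold raw UMI counts per gene and cell barcode, made by the authors from SeekOne MM 3′ libraries; the submitters' processing notes name Cell Ranger 2.1.1 and mm10, and the labels name 10x Genomics, so the counting step is not certain. Barcodes passed with 200 to 4000 genes and no more than 5% of UMIs from mitochondrial genes, and were clustered in Seurat 5.3.0 (2000 variable genes less the 7 genes, pathway, sex-linked and mitochondrial genes, 20 components, resolution 0.8). A class needed at least 3 markers with log2 fold of 1 and 20 UMIs. Scrublet (scanpy 1.11.5) called 3 WT and 7 Clec7a-/- cells (0.111 and 0.350%), too few to have worked, so no doublets were removed. UMIs were summed per class and library and divided by class totals. Intervals were exact Poisson for levels, conditional binomial for ratios and Clopper-Pearson for shares, at 95%; a level allowed by 0 UMIs used 3 counts. The 2-fold count took genes with at least 100 UMIs and added 0.5 UMI. Levels at WT cluster shares weighted Clec7a-/- cluster levels by WT UMI shares. UMIs were thinned at random to 1000 per cell. TMM used edgeR 4.0.16. Named were the 7 genes, from each pathway list the 3 with most UMIs and those beyond 2-fold in a class, the 5 genes most like each member by Pearson r, and class markers. The computing of intervals and ratios was checked on simulated Poisson counts, which hold no spread between cells, mice or libraries. Members and lists were chosen with earlier results of these data known.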

Additional observations from a re-analysis of the deposited data

Results flagged for a closer look

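Differences between the libraries lay on opposite sides of 0 in different cell classes for 3 of the genes, each beyond counting error; whether the classes differed was not tested, since there was 1 library per genotype. Csf3r was 0.55 on the log2 scale (Clec7a-/- over WT) in neutrophil-like cells and 0.62 in the mixed cluster, but -0.61 in DC-like cells, where its level was below that of T cell-like cells. Csf1 was 0.38 in neutrophil-like cells and -0.84 in macrophage-like cells. Within the neutrophil-like class it was -0.79 in the shallow and 0.28 (-0.36 to 0.88) in the granule-rich cluster. The parts of the shallow cluster went opposite ways, though the intervals of the libraries overlapped in the mostly WT part. Csf2rb was 0.86 in the mast cell-like cells and -0.40 in transitional-like, -0.29 in neutrophil-like, -0.26 in macrophage-like, -0.20 in DC-like, -0.27 in mixed and -0.39 in proliferating cells.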

How the results depend on the processing

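Within the 5 main classes and at WT cluster shares, none of the differences of genes with at least 100 UMIs whose interval lay off 0 changed direction under the alternatives run (at WT shares, by approximate intervals); the Csf1r difference in monocyte-like cells ranged from 0.42 to 0.53, that in macrophage-like cells from 0.25 to 0.32, the Csf3r difference in neutrophil-like cells from 0.42 to 0.68 and the Flt3 difference in DC-like cells from 0.11 to 0.20. No paired analysis was possible because each genotype had 1 library, and for the same reason none could be left out. Values that moved beyond their interval within classes were, with clusters formed on the WT library alone, 0.25 for Csf1r and -0.34 for Csf2rb in macrophage-like cells, -0.16 for Csf2rb and -0.15 for Csf2rb2 in transitional-like cells and -0.49 for Csf2rb in neutrophil-like cells, with up to 10% mitochondrial UMIs, -0.42 for Csf2rb and -0.32 for Csf2rb2 in macrophage-like and -0.26 for Csf2rb in transitional-like cells, as means over cells, -0.27 for Csf2rb in DC-like and 0.68 for Csf3r in neutrophil-like cells, and under TMM, 0.42 for Csf3r in neutrophil-like cells. The Csf3r difference, within counting error as reported, ran from -0.33 to 0.36 in macrophage-like and from -0.18 to 0.69 in transitional-like cells, where its WT level went from 172 down to 49.5 CPM with up to 10% mitochondrial UMIs. At WT cluster shares Csf2rb2 reached -0.23 with up to 10% mitochondrial UMIs, and the Csf1 value, within counting error, ran from -0.27 to 0.11. Whole-library differences depended more on the setting. TMM, which lowered all of them by 0.17, gave -0.18 for Csf1r, -0.48 for Csf2ra, -0.34 for Csf2rb2, -0.78 for Csf3r and, turning the direction, -0.033 for Csf2rb. Means over cells gave -0.10 for Csf1, -0.25 for Csf2ra, -0.26 for Csf2rb2 and, with turned directions, -0.078 for Csf2rb and 0.21 for Csf3r. With up to 10% mitochondrial UMIs the values were -1.004 for Csf1, -0.15 for Csf1r, -0.29 for Csf2rb2 and -0.78 for Csf3r, and with 500 to 6000 detected genes -0.86 for Csf3r. The cause of these moves was not tested. A mean over cells gives shallow cells more weight than summed UMIs do. The share of WT neutrophil-like cells with a Csf3r UMI was 86.3% without thinning, 93.4% at 2000 UMIs, 71.3% with clusters from the WT library alone, 78.8% with reciprocal PCA and 78.8% at the higher resolution; at 2000 UMIs it was 100% in Clec7a-/-, where few cells were deep enough. The number of genes beyond 2-fold over all cells was 350, and 903 when 20 UMIs sufficed; in the classes it was then 554 (neutrophil-like), 323 (monocyte-like), 380 (transitional-like), 327 (macrophage-like) and 416 (DC-like). Removing the 5% of cells with the highest doublet scores was added after seeing the data and moved none of the differences above beyond its interval except that of Csf3r in macrophage-like (0.36) and transitional-like cells (0.33), while the WT level of Csf3r fell from 55.5 to 37.7 CPM in macrophage-like and from 172 to 117 CPM in transitional-like cells. Depth limits Flt3, Csf1 and Csf3r outside their main classes, where levels rest on few UMIs.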
